A study of Mus musculus with 9 samples.

Results

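A group of genes known from fibroblasts and the meninges were followed in cultured mouse astrocytes: Dcn, Lum, Ogn, Fn1, Fbln1, Postn, Foxc1, Foxc2 and Aldh1a2. They were taken by gene symbol, and 9 of 9 were found among the 18061 genes of the deposited table. The cells were primary cortical astrocytes of C57BL/6 wild-type mouse pups, harvested on day 12 in culture after 1 day without glucose, in 9 libraries of 3 biological replicates per group by their titles. The control group had glucose-free medium alone for that day, the acetate group had 10 mM sodium acetate in it, and the Aβ plus acetate group had in addition 1 µM amyloid-beta oligomers (Aβ) for 5 days. Every group shared the loss of glucose, and no group with Aβ and without acetate was analysed here. Values are CPM as deposited, the reads of a gene scaled to a fixed library total and not corrected for gene length.

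Library names are written in 2 styles, which split the samples into library sets. Set 2 held replicates 2 and 3 of both treated groups and control 3, and set 1 held replicate 1 of every group and control 2. What the sets stand for is not given in the labels. No set was repeated, so p-values between the sets measure only the spread of libraries within them. Since set 1 held 2 of 3 controls and 1 of 3 libraries of each treated group, every comparison of groups was fitted with the set as a covariate.

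The meninges are sheets of connective tissue around the brain. Their fibroblasts secrete collagens, proteoglycans and adhesive glycoproteins, depend during development on the forkhead factors FOXC1 and FOXC2, and make retinoic acid through RALDH2, the product of Aldh1a2. Cultures prepared from the cortex of newborn pups can carry meningeal and vascular cells, and astrocytes in culture also make some matrix proteins, fibronectin among them. In bulk RNA, fewer cells of a type and less RNA per cell cannot be told apart.

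Step sizes between low values implied 22160000 to 57030000 reads per library, and 13504 to 13723 genes per library reached a CPM of at least 1. Astrocyte markers were present in all libraries: 12 of 12 listed markers had a mean CPM of at least 1, with summed levels of 8664 to 10179 CPM in set 1 and 10879 to 13061 CPM in set 2. Between the sets, 9929 of 14058 tested genes differed (70.6%; limma with Benjamini-Hochberg adjustment, adjusted p under 0.05), 5394 higher (38.4%) and 4535 lower (32.3%) in set 2. No pair of replicates agreed within counting error, so none was merged as a library deposited more than once; that the cultures were separate rests on the titles alone.

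Small leucine-rich proteoglycans bind collagen fibrils and set their spacing. Decorin, encoded by Dcn (mm10, chromosome 10, 97479500 to 97518164), was measured at 15.3 and 17.2 CPM in control 1 and control 2, 18.6 in acetate 1 and 22.1 in Aβ plus acetate 1. In set 2 it was at 1.60 CPM in control 3, 2.54 and 2.20 in acetate 2 and acetate 3, and 0.466 and 0.975 in Aβ plus acetate 2 and Aβ plus acetate 3. No set 2 library came near the lowest of set 1, and the means were 18.3 ± 2.88 CPM (SD, n = 4) and 1.56 ± 0.854 (SD, n = 5), a ratio of 11.8. On the log2(CPM + 1) scale Dcn was 3.01 lower in set 2 (log2 difference -3.01, SE 0.20; limma adjusted p = 1.37e-07).

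Lumican, the product of Lum, lies beside Dcn on chromosome 10 (97565501 to 97572704) and regulates collagen fibril assembly in the cornea and other connective tissues. Lum was low throughout, at 1.25 and 1.67 CPM in control 1 and control 2, 1.48 in acetate 1 and 2.00 in Aβ plus acetate 1. It was listed at 0 in control 3 of set 2, where 3 reads would give 0.0844 CPM, and stood at 0.330 and 0.322 CPM in acetate 2 and acetate 3, and at 0.0222 and 0.0375 CPM in Aβ plus acetate 2 and Aβ plus acetate 3. These set 2 values rest on 0 to 14 implied reads, against 37 to 71 in set 1. Lum was lower in set 2 without overlap (log2 difference -1.25, SE 0.14; limma adjusted p = 7.85e-06), on a scale that understates the change of so low a gene. No set 2 library reached a CPM of 1, so Lum entered the test only through set 1, and its p-value is a description.

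Osteoglycin, or mimecan, is encoded by Ogn on chromosome 13 (49608015 to 49624502) and behaved differently in size. Ogn was among the abundant transcripts of both sets, at 437 and 618 CPM in control 1 and control 2, 752 in acetate 1 and 501 in Aβ plus acetate 1. Set 2 levels were 408 CPM in control 3, 337 and 345 in acetate 2 and acetate 3, and 341 and 281 in Aβ plus acetate 2 and 3. The lowest set 1 library lay just above the highest of set 2, and the set means of 577 ± 139 CPM (SD, n = 4) and 342 ± 45.0 (SD, n = 5) stood in a ratio of 1.69 (log2 difference -0.73, SE 0.14; limma adjusted p = 0.000705). Cenpp, a centromere protein gene, overlaps Ogn on the opposite strand at 1.46 to 2.75 CPM, and the strand setting of the counting is not given in the sources used here.

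The 10 of 14 other proteoglycans of the family that could be tested gave 9 lower and 1 higher in set 2, with a median log2 difference of -1.10 against 0.050 over all tested genes. Bgn, encoding biglycan, the close relative of decorin, fell from 946 ± 61.3 CPM (SD, n = 4) in set 1 to 92.3 ± 12.3 (SD, n = 5) in set 2 (log2 difference -3.41, SE 0.09; limma adjusted p = 9.26e-11). Podn, for podocan, fell from 39.9 to 4.92 CPM (log2 difference -2.80) and Fmod, for fibromodulin, from 437 to 144 (-1.64). Aspn, for asporin, fell from 2.92 to 0.107 CPM (-1.81), on a scale that understates the change of so low a gene. It entered the test only through set 1. Omd, whose protein osteomodulin is a relative of osteoglycin, was at 69.7 CPM in set 1 and 31.8 in set 2 (log2 difference -1.07), and was chosen after its values were seen.

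Fibronectin, the product of Fn1 (chromosome 1, 71585473 to 71653235), is an adhesive glycoprotein that cells assemble into fibrils through integrins. Fn1 had the highest CPM of the 9 genes in every library, at 1498 and 1303 CPM in control 1 and control 2, 1438 in acetate 1 and 1444 in Aβ plus acetate 1. Set 2 held it at 890 CPM in control 3, 875 and 1074 in acetate 2 and acetate 3, and 1146 and 1072 in Aβ plus acetate 2 and Aβ plus acetate 3. All set 1 libraries lay above all set 2 libraries, but the ratio of the means was only 1.41 (1421 ± 83.3 CPM, SD, n = 4, and 1011 ± 121, SD, n = 5; log2 difference -0.53, SE 0.09; limma adjusted p = 0.000235). Apol7d, which overlaps Fn1 on the other strand, was at 0.163 to 0.555 CPM.

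Genes for integrins and other proteins that bind or assemble fibronectin were mostly lower in set 2: of 20 tested, 15 were lower and 4 higher, with a median of -0.89. Itga8, an integrin subunit that pairs with the β1 chain, fell from 69.5 CPM to 0.951 (log2 difference -5.19), and Tns1, for the adhesion protein tensin 1, fell from 362 to 77.3 (-2.28). Vcl, for vinculin, fell by 1.85 and Itgb5, for integrin β5, fell by 1.63.

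Fibulin-1, encoded by Fbln1 (chromosome 15, 85205949 to 85286295), binds fibronectin and elastic fibres. Fbln1 was at 31.4 and 32.4 CPM in control 1 and control 2, 28.5 in acetate 1 and 31.7 in Aβ plus acetate 1, all of set 1. The set 2 libraries gave 22.01 CPM in control 3, 31.2 and 26.5 in acetate 2 and acetate 3, and 32.3 and 31.1 in Aβ plus acetate 2 and 3. The sets overlapped, and the difference did not pass the test (ratio of means 1.08; log2 difference -0.17, SE 0.10; limma adjusted p = 0.166). Among 21 other fibulins and elastic fibre genes, 19 were lower and 1 was higher in set 2, with a median of -2.20. Lox, the enzyme that cross-links collagen and elastin, fell from 432 to 8.16 CPM (log2 difference -5.63), Eln, for elastin, from 26.4 to 1.57 (-3.39), Fbln5 from 333 to 56.2 (-2.53) and Fbn1, for fibrillin-1, from 90.0 to 23.5 (-1.89). Other fibulins, chosen after their values were seen, were also lower: Fbln2 fell from 40.5 to 5.08 CPM, Efemp1 from 81.0 to 43.0 and Efemp2 from 178 to 107. Fbln7 was the 1 gene of the list that rose, from 20.3 to 61.3 CPM.

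Periostin, a matricellular protein of periosteum, skin and fibrosing tissue, is encoded by Postn (chromosome 3, 54359267 to 54391042). Postn was at 96.8 and 142 CPM in control 1 and control 2, 105 in acetate 1 and 111 in Aβ plus acetate 1. Levels in set 2 were 3.63 CPM in control 3, 4.42 and 5.35 in acetate 2 and acetate 3, and 3.04 and 2.68 in the Aβ plus acetate libraries. Set means of 114 ± 19.7 CPM (SD, n = 4) and 3.83 ± 1.08 (SD, n = 5) gave the widest ratio among the 9 genes, 29.7, and Postn ranked 17 from the lowest of 14058 log2 differences (-4.57, SE 0.14; limma adjusted p = 3.51e-10). Of 19 other matricellular genes tested, 11 were lower and 5 higher in set 2, with a median of -1.02. Ccn2, the connective tissue growth factor gene, fell from 3555 to 232 CPM (log2 difference -3.95), Thbs2 from 93.7 to 13.2 (-2.80), Ccn4 from 89.4 to 17.0 (-2.42) and Thbs1 from 2954 to 688 (-2.08). Tnc, for tenascin C, did not pass (-0.21) and was chosen after its value was seen.

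FOXC1 and FOXC2 are forkhead transcription factors of mesenchyme, and loss of FOXC1 in mice leaves the meninges of the forebrain poorly formed. Foxc1 (chromosome 13, 31806646 to 31810636) was at 47.8 and 56.9 CPM in control 1 and control 2, 49.9 in acetate 1 and 55.9 in Aβ plus acetate 1. In set 2 it was at 15.6 CPM in control 3, 13.67 and 13.02 in acetate 2 and acetate 3, and 16.8 and 14.1 in Aβ plus acetate 2 and Aβ plus acetate 3. Both sets were tight around means of 52.6 ± 4.44 CPM (SD, n = 4) and 14.6 ± 1.52 (SD, n = 5), a ratio of 3.596 (log2 difference -1.77, SE 0.08; limma adjusted p = 9.91e-09). The lowest set 2 library was at 13.02 CPM and the highest at 16.8.

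Foxc2 (chromosome 8, 121116171 to 121118895) was far lower, at 3.19 and 3.25 CPM in control 1 and control 2, 2.89 in acetate 1 and 3.83 in Aβ plus acetate 1. In set 2 it was at 0.141 CPM in control 3, 0.203 and 0.138 in acetate 2 and acetate 3, and 0.155 and 0.150 in Aβ plus acetate 2 and Aβ plus acetate 3, values that rest on 5 to 8 implied reads. The ratio of means was 20.9 (log2 difference -1.90, SE 0.11; limma adjusted p = 4.95e-08). Foxc2 reached a CPM of 1 in set 1 alone and was tested only through that set, so its p-value is a description. Among 20 other transcription factors of mesenchyme that could be tested, of 31 listed, 15 were lower and 1 was higher in set 2, with a median of -1.51. Tbx18, a T-box factor of mural cells, fell from 40.6 to 0.280 CPM (log2 difference -5.02), Foxf2, a forkhead factor of brain pericytes, from 17.8 to 0.101 (-4.07) and Snai2 from 7.11 to 0.370 (-2.60).

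Aldh1a2 (chromosome 9, 71215789 to 71296244) encodes the retinaldehyde dehydrogenase that makes retinoic acid in the meninges. It was at 3.07 and 3.84 CPM in control 1 and control 2, 3.35 in acetate 1 and 1.67 in Aβ plus acetate 1. The set 2 levels were 0.197 CPM in control 3, 0.203 and 0.0459 in acetate 2 and acetate 3, and 0.0887 and 0.281 in Aβ plus acetate 2 and Aβ plus acetate 3, on 2 to 15 implied reads. The sets did not overlap, with a ratio of means of 18.3 (log2 difference -1.67, SE 0.16; limma adjusted p = 2.53e-06). Aldh1a2 too reached a CPM of 1 in set 1 alone and was tested only through that set, so its p-value is a description. Other genes of retinoic acid synthesis, binding, breakdown and response were mixed, with 7 lower and 3 higher among 14 tested and a median of -0.17. Cyp26b1, which breaks retinoic acid down, fell from 94.9 to 0.817 CPM (log2 difference -5.71), and Aldh1a1, a second synthetic enzyme, from 291 to 70.0 (-2.04). Rdh11 fell by 0.54 on the log2 scale, and Rdh5, a retinol dehydrogenase, rose from 7.94 to 20.7 CPM (1.19).

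**Figure D1:**
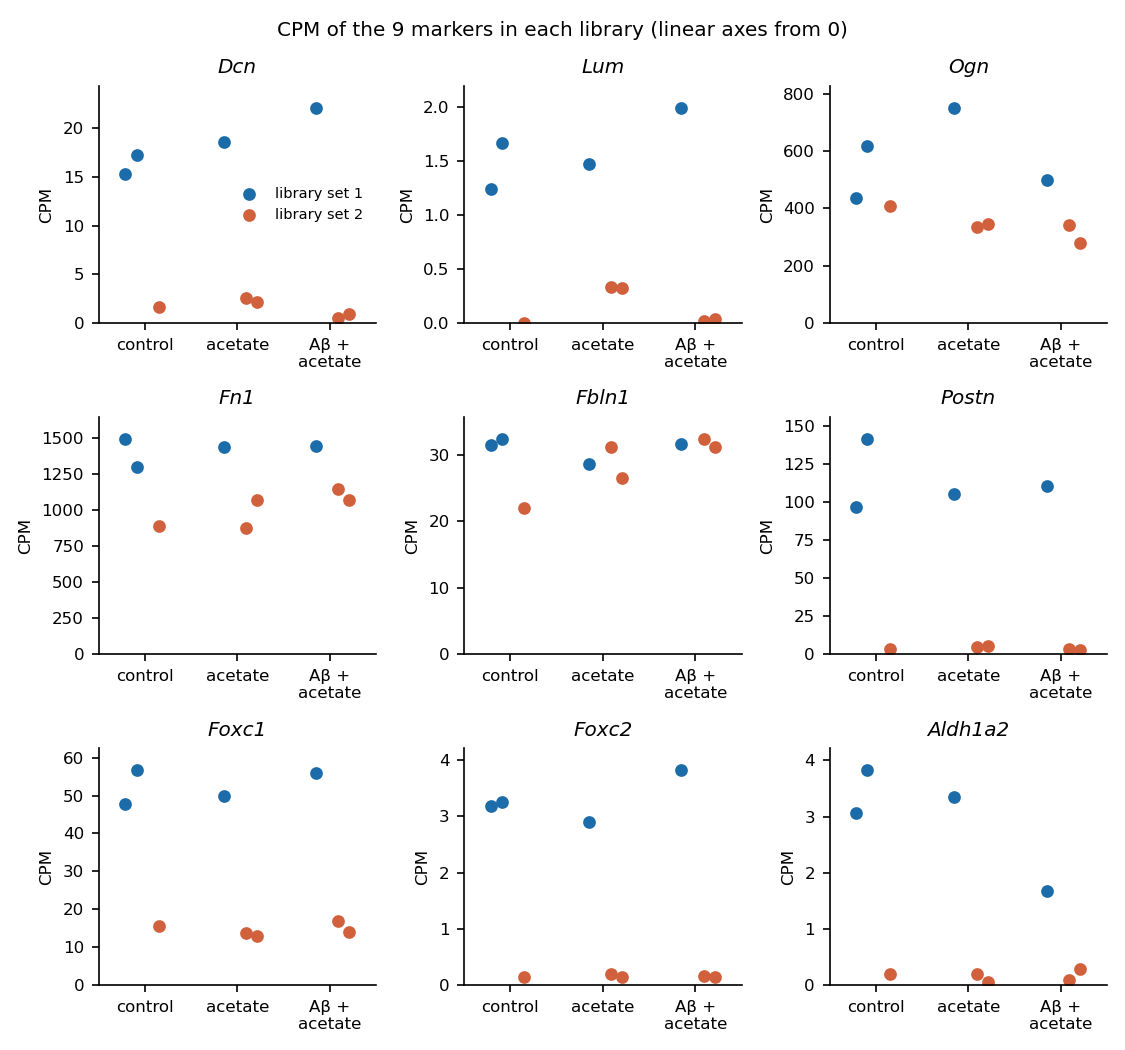
CPM of each of the 9 genes on linear axes that start at 0, with 1 point per library, coloured by library set and placed by group. For 8 genes all 4 set 1 libraries lie above all 5 set 2 libraries, and for Fbln1 the sets overlap.

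Across the 9 genes, 8 were lower in set 2 past the threshold and 0 higher, where 32.3% of all tested genes were lower. The sets did not overlap for 8 of 9, with set 2 lower, where 63.5% of genes did not overlap and 29.5% did so with set 2 lower. A log2 difference below -1 past the threshold was found for 6 of 9 genes, where 8.03% of genes had one. These counts are a description, since Lum, Foxc2 and Aldh1a2 passed the filter on low values, which asked 3 libraries for a CPM of 1 or more, only through set 1. Of the 6 genes that reached a CPM of 1 in some library of each set, 5 were lower and Fbln1 was not called. By size the genes fell apart: Postn, Foxc2, Aldh1a2, Dcn and Lum had set means 10 or more times higher in set 1, as 1.22% of tested genes did. Foxc2, Aldh1a2 and Lum among these were tested only through set 1, so this count too is a description. Foxc1 stood between at 3.596, and Ogn, Fn1 and Fbln1 lay between 1.08 and 1.69. The median of the 9 log2 differences was -1.67, beside 0.050 for all genes.

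**Figure D2:**
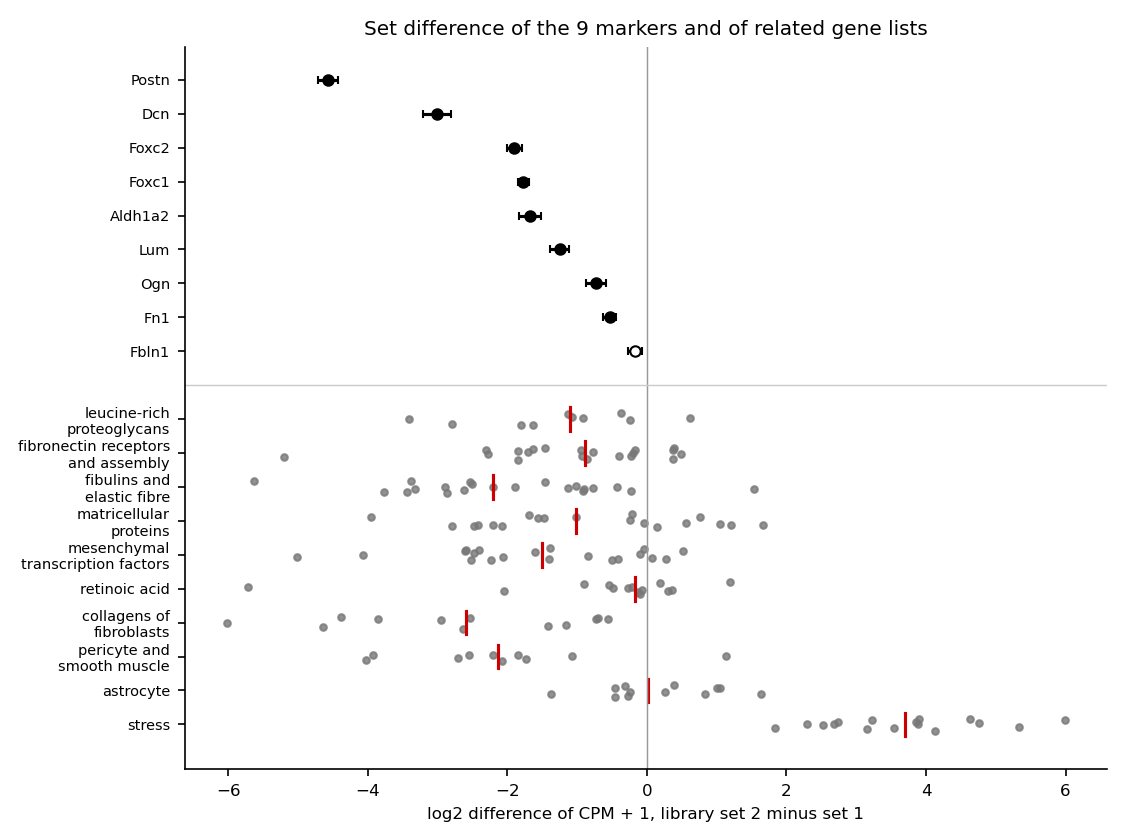
Log2 difference of set 2 minus set 1 on the log2(CPM + 1) scale. Above, circles with bars of ± SE are the 9 genes, filled where past the threshold, from -4.57 for Postn to -0.17 for Fbln1; below, grey points are the tested genes of each list without the 9, and red ticks their medians, such as -2.59 for collagens and 3.70 for stress genes.

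Per length of annotated exons, the order of levels changed between the sets. In set 1 the mean levels were 225 CPM per kb for Ogn, 122 for Fn1, 13.1 for Postn, 9.004 for Foxc1, 7.10 for Fbln1, 3.14 for Dcn, 1.32 for Aldh1a2, 1.21 for Foxc2 and 0.653 for Lum. Neighbours in that order did not overlap over the 4 libraries, except Aldh1a2 with Foxc2 and with Lum. In set 2 the order began with Ogn at 133 CPM per kb, Fn1 at 86.5, Fbln1 at 6.56 and Foxc1 at 2.504. Postn at 0.440 and Dcn at 0.267 overlapped there, and Aldh1a2, Lum and Foxc2 overlapped at 0.0721, 0.0581 and 0.0578 CPM per kb. Postn thus went from the third place to the fifth, and Ogn and Fn1 kept the first places.

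Promoter sequences from RefSeq on GRCm38.p6, from 250 bases before to 50 after the start, matched 5 of the 9 genes. They are shown to set genes with a wide difference between the sets (Postn, Aldh1a2, Foxc1) beside genes with a small one (Ogn, Fbln1). All are on the plus strand, 5′ to 3′, and capitals mark matches to the motifs searched; for Postn and Fbln1, which have 2 listed starts each, 1 is shown, and the Postn start shown lies inside the deposited gene interval.
Postn, chr3:54360857-54361156: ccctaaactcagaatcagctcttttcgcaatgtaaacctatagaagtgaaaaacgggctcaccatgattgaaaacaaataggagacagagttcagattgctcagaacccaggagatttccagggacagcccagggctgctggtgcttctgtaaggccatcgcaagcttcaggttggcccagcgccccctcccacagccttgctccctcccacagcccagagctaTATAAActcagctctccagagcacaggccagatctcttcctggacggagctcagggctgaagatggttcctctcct
Aldh1a2, chr9:71215539-71215838: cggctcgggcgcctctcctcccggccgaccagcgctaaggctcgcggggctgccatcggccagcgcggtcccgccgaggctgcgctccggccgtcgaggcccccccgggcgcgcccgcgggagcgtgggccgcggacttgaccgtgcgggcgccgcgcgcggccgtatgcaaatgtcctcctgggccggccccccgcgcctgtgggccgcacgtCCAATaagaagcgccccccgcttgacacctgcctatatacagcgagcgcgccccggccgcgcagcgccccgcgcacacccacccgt
Foxc1, chr13:31806396-31806695: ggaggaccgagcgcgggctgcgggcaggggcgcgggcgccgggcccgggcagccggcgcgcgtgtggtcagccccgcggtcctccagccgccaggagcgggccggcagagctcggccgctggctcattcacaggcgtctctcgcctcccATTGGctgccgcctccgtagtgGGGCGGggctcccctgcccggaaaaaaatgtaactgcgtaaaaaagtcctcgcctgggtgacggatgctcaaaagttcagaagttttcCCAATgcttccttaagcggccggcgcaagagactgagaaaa
Ogn, chr13:49607765-49608064: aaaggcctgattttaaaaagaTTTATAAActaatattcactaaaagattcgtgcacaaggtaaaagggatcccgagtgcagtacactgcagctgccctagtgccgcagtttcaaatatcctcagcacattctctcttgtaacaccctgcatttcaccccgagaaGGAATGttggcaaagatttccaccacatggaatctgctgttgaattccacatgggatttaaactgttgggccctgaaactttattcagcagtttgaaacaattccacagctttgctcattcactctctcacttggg
Fbln1, chr15:85205699-85205998: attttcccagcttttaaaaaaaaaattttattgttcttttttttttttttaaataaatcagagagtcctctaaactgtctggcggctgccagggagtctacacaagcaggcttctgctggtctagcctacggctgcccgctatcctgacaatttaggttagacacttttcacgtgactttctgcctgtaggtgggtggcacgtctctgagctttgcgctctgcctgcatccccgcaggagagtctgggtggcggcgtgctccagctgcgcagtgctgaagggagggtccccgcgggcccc

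Searched on both strands were the TATA box TATAAA, the CCAAT box CCAAT, the GC box GGGCGG, the forkhead core TAAACA, the TEAD site CATTCC and the AP-1 site TGANTCA. Among 32851 promoters of this length they were held by 13.6%, 37.4%, 35.7%, 13.4%, 14.7% and 7.81%. The Postn promoter held a TATA box 26 bases before the start. That of Ogn held 2 overlapping TATA boxes on opposite strands, far upstream, and a TEAD site, and that of Foxc1 held 2 CCAAT boxes and a GC box. Aldh1a2 had 1 CCAAT box, and the Fbln1 window shown had no match. At the other Fbln1 start (chromosome 15, window 85205758 to 85206057) the window held 2 GC boxes at 64% G and C. At the other Postn start (chromosome 3, window 54359017 to 54359316) it held a CCAAT box and no TATA box, at 40% G and C. No forkhead or AP-1 match lay in the 5 windows shown. Base composition in them ranged from 42.3% G and C in Ogn to 53% in Postn, 67.3% in Foxc1 and 78% in Aldh1a2, around a median of 52.7% for all promoters. These matches describe letters in the windows only.

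Markers of other cells moved with the sets too. The 13 collagen genes of fibroblasts summed to 3248 to 3520 CPM in set 1 and 436 to 523 in set 2, with 13 of 13 higher in set 1. Of the 12 tested, 12 were lower in set 2, with Col3a1 down from 469 to 6.49 CPM (log2 difference -6.02), Col6a3 from 33.3 to 0.613 (-4.39), Col8a1 from 691 to 47.1 (-3.85) and Col5a2 from 1050 to 167 (-2.64). Pericyte and smooth muscle markers summed to 3218 to 4014 CPM in set 1 and 627 to 870 in set 2, with 9 of 10 tested genes lower and 1 higher. Among the lower genes Myh11, for smooth muscle myosin, fell from 34.0 to 1.12 CPM, Rgs5 from 104 to 6.14, Pdgfrb from 228 to 49.95 and Acta2 from 1927 to 299. Anpep was the 1 that rose, from 14.9 to 32.5 CPM. Acta2 and Tagln together made up most of the sum in every library.

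Oligodendrocyte-lineage markers summed to 776 to 1008 CPM in set 1 and 240 to 363 in set 2, with 4 of 8 tested genes lower and 2 higher. Olig1 (set means 561 and 66.2 CPM) made up most of the set 1 sum, and Mbp rose from 2.49 to 17.9 CPM. Microglial markers went the other way, at 162 to 260 CPM in set 1 and 374 to 601 in set 2, with 10 of 11 tested genes higher. The astrocyte list was mixed, with 6 of 12 higher and 5 lower and a median of 0.011. The glutamate transporter genes Slc1a3 and Slc1a2 rose by 1.05 and 1.01 on the log2 scale and S100b by 1.64, while Glul, for glutamine synthetase, fell by 1.37. Summed neuronal markers were at 539 to 650 and 497 to 543 CPM, ependymal and choroid plexus markers at 329 to 492 and 389 to 519. Single genes carried most of these sums, Map2 (set means 435 and 394 CPM) and Foxj1 (350 and 392). The neuronal Slc17a7 and Gad2 were below 1 CPM in every library. Of 8 tested neuronal genes, 4 were higher and 2 lower in set 2, and of 8 ependymal and choroid plexus genes, 5 and 1. Endothelial markers summed to 37.8 to 42.3 and 36.6 to 52.4 CPM, with Pecam1, Cdh5, Tek and Tie1 below 1 CPM in every library. Of the 4 tested, 1 was higher and 2 were lower in set 2. Kdr rose from 13.4 to 34.3 CPM, while Flt1 fell from 23.5 to 8.97 and Erg from 2.37 to 0.00952. Egfl7 was at 0.972 and 0.882 CPM and did not pass. No marker of any list was at 0 in every library.

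Genes of the amino acid response and endoplasmic reticulum stress rose together in set 2, with 16 of 16 higher past the threshold and a median of 3.70. Their summed level was 2531 to 2991 CPM in set 1 and 18305 to 23598 in set 2. Ddit3, for the stress factor CHOP, rose by 5.34 on the log2 scale to 685 CPM. Trib3 was at 2.71 CPM in set 1 and 231 in set 2, Herpud1 at 42.6 and 744, and Chac1 at 5.58 and 159. The part of the marker lists and of the stress genes in the difference of the 9 genes was not tested.

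**Figure D3:**
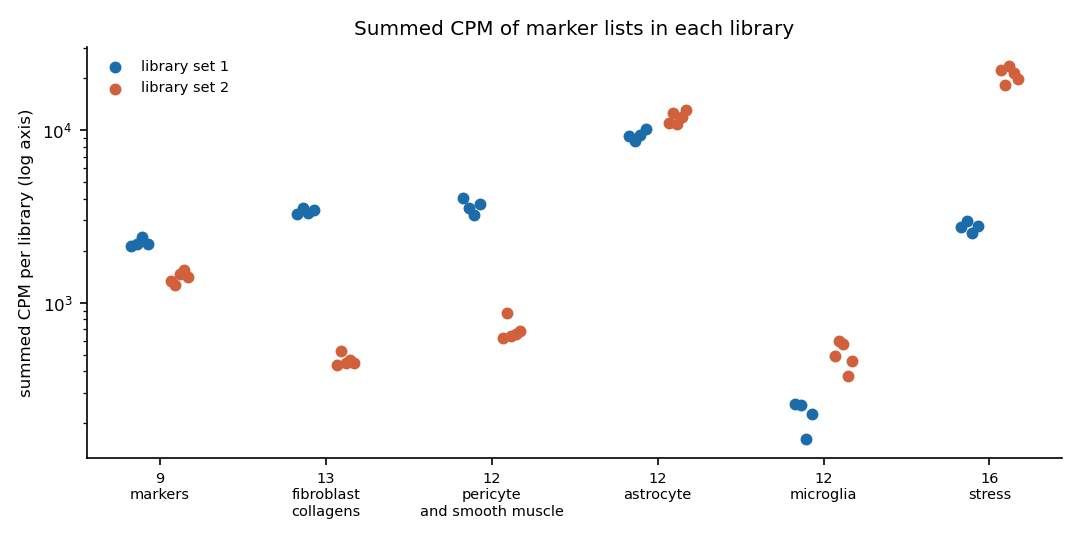
Summed CPM of the 9 genes and of marker lists in each library, on a log axis, with points coloured by set. The 9 genes summed to 2135 to 2399 CPM in set 1 and 1265 to 1539 in set 2, and the stress list lies higher in set 2. Fn1 and Ogn make up most of the sum of the 9 genes in every library, so it hides the wider differences of the lower genes.

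Acetate against control asks how the added substrate changed cells without glucose. None of the 9 genes passed the test, as 0 of 14058 genes did (0%; limma with the set as covariate), while 453 genes and 0 of the 9 had an unadjusted p under 0.05. Log2 differences for the 9 ran from -0.14 for Aldh1a2 to 0.40 for Dcn (SE 0.24), with a median of 0.079 beside -0.023 for all genes. Lum was at 0.26 (SE 0.16), Postn at 0.14 (SE 0.17), Ogn at 0.13 (SE 0.17) and Foxc1 at -0.13 (SE 0.10), and Fbln1, Fn1 and Foxc2 lay at 0.079, 0.057 and -0.011. The groups overlapped for all 9 genes, where 2.16% of genes did not overlap.

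Within sets the acetate values were not alike for every gene. Ogn was 0.53 higher with acetate in set 1 and 0.26 lower in set 2 (log2 -0.26), and Fbln1 was at -0.16 and 0.37. Postn was at -0.15 and 0.34, Dcn at 0.18 and 0.37, Lum at 0.017 and 0.41, and Foxc1 at -0.063 and -0.21. Set 1 gives 1 acetate library against 2 controls, and set 2 gives 2 against 1. Without the set in the fit, the same comparison gave -1.38 for Postn, -0.60 for Dcn, -0.15 for Lum, -0.12 for Fn1 and -0.11 for Ogn, the opposite sign of the values above, with no gene past the threshold.

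Aβ plus acetate against acetate asks what Aβ changed where acetate was present. Again 0 of 9 genes and 0 of 14058 passed (0%; limma), with 436 genes at an unadjusted p under 0.05. Dcn (log2 difference -0.58, SE 0.23) and Postn (-0.38, SE 0.16) were the 2 of 9 with an unadjusted p under 0.05, and the smallest adjusted p among the 9 was 1.00. The others lay between -0.29 for Ogn and 0.18 for Foxc1, and the median was -0.15 beside 0.020 for all genes. Groups overlapped for all 9, where 2.46% of genes did not.

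The sets went apart most for Dcn here. Within set 1, with 1 library per group, Dcn was at 22.1 CPM with Aβ and acetate and 18.6 with acetate alone. Within set 2, both Aβ plus acetate libraries (0.466 and 0.975 CPM) lay under both acetate libraries (2.54 and 2.20), and the log2 differences were 0.24 in set 1 and -0.99 in set 2. Lum was at 0.28 and -0.36, and Postn at 0.072 and -0.61. Aldh1a2 ran the other way, at -0.70 in set 1 and 0.074 in set 2, a difference between sets of 0.78 (SE 0.30; limma adjusted p = 1.00). Ogn was at -0.59 and -0.14, Foxc2 at 0.31 and -0.022, Fn1 at 0.0069 and 0.19, Fbln1 at 0.15 and 0.14, and Foxc1 at 0.16 and 0.19. Of these, Foxc1 was apart within set 2, with Aβ plus acetate higher. For Dcn, Lum and Postn, 3 of 9 genes, the set 2 groups were apart with Aβ plus acetate lower, where 10.8% of all genes were, and set 1 went the other way, as it did for 6.73% of genes. The test of the difference between the sets gave -1.23 for Dcn (SE 0.31; limma adjusted p = 0.461), and 0 of 14058 genes passed it, with 518 at an unadjusted p under 0.05.

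Aβ plus acetate against control shares libraries with both comparisons above. Here too 0 of 9 genes and 0 of 14058 passed (0%; limma), with 505 genes and 0 of the 9 at an unadjusted p under 0.05. Values ran from -0.33 for Aldh1a2 (SE 0.19) to 0.22 for Fbln1 (SE 0.12), with Postn at -0.24, Dcn at -0.17, Ogn at -0.16, Fn1 at 0.19 and Lum at 0.11. Foxc2 and Foxc1 were at 0.078 and 0.051, and the median was 0.051 beside -0.0049 for all genes. Dcn was 0.42 higher in set 1 and at -0.61 in set 2, and Aldh1a2 was at -0.73 and -0.019. Groups overlapped for all 9 genes, where 2.9% of genes did not. Left out of the fit, the set turned Lum to -0.30, Foxc1 to -0.54 and Foxc2 to -0.55, with no call.

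**Figure D4:**
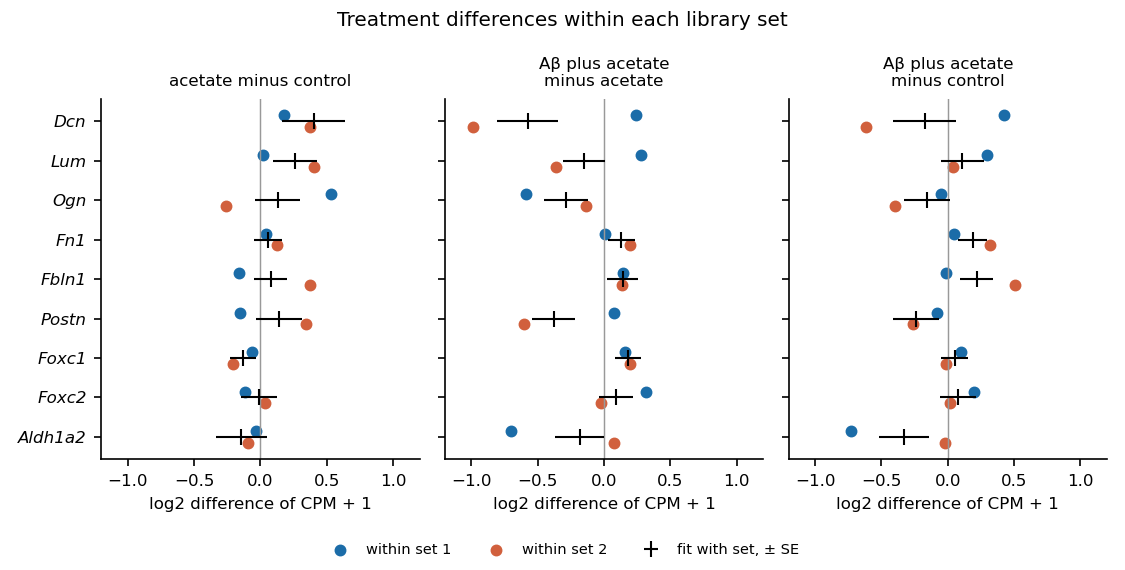
Log2 differences of the 9 genes in the 3 group comparisons, on the log2(CPM + 1) scale: coloured points are differences within each library set, black bars the fit with the set as covariate ± SE. In the middle panel Dcn lies at 0.24 in set 1 and -0.99 in set 2.

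None of the lists of related genes held a gene past the threshold in any of the 3 group comparisons, in either direction, and the same was true of the marker lists.

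Once each set's mean was removed, the 9 genes varied in different ways. Over 36 pairs and 9 libraries, the median Pearson r was -0.026, with 4 pairs over 0.5 and 3 under -0.5. Dcn went with Lum (r = 0.777) and with Postn (r = 0.677), and Lum with Postn (r = 0.732). Foxc2 and Aldh1a2 went opposite ways (r = -0.726), as did Dcn and Fn1 (r = -0.604). These values share libraries and depth and rest on few reads for Lum, Foxc2 and Aldh1a2 in set 2.

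Of all tested genes, the closest by the same measure were Selenop for Dcn (r = 0.934), Fam241a for Lum (r = 0.956), Cep44 for Ogn (r = 0.963), Cenpv for Fn1 (r = 0.951) and Cercam for Fbln1 (r = 0.979). Lmo4 was closest to Postn (r = 0.985), the uncharacterised 5530601H04Rik to Foxc1 (r = 0.953), Haus4 to Foxc2 (r = 0.982) and Ndc1 to Aldh1a2 (r = 0.971). Selenop, for selenoprotein P, was also among the closest 3 of Lum (r = 0.910), and Cald1, for caldesmon, among those of Postn (r = 0.954). These are the highest values picked from all tested genes over 9 libraries, so a high r can arise from the picking alone. No link between the genes was tested.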

How the data were processed

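RNA was sequenced as poly-A libraries, paired-end, per the labels' protocols. The authors deposited CPM for 18061 genes in 9 libraries, a share of reads per library. STAR 2.7.3a, Partek and FastQC, and both mm10 and GRCm39, appear in the submitters' processing notes without their roles. Positions are on mm10, since 17612 of 17644 symbols overlapped their gene in GENCODE M21. At low values (up to 20 implied reads), 93.5 to 94.6% came out whole within 0.1, which was too few for a count model.

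The 14058 genes that reached a CPM of 1 in 3 or more libraries were tested as log2(CPM + 1). The two-sided test was limma 3.58.1 (R 4.3.3), trended and robust, with group and library set in one fit and Benjamini-Hochberg adjustment over all of them at 0.05. Differences between sets came from a fit of each group in each set. P-values measure the spread between cultures as the titles name them.

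The 9 genes and the lists were chosen with earlier results of these data known. Besides the 9, up to 4 genes per list with the smallest p, and the 3 genes per member with the highest correlation after set centring, could be named. Alternatives were pseudocounts, filters, scalings, limma without trend or robust prior, no set, replicate blocks, 6 libraries alone and each library left out.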

Additional observations from a re-analysis of the deposited data

Results flagged for a closer look

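For 6 results, the treated libraries lay wholly on one side of those they were compared with in set 1 and wholly on the other side in set 2. With 1 or 2 libraries per group in a set, this can arise from order alone, and 1 library against 1 cannot overlap. For Aβ plus acetate against acetate, 6.73% of all genes were lower in set 2 without overlap and higher in set 1. No share was taken for the other comparisons, so the 6 are only listed. The test of the difference between sets followed for the 6 results, and none passed limma's adjustment over 14058 genes. For acetate against control, the log2 difference in set 2 minus that in set 1 was -0.79 for Ogn (limma adjusted p = 0.56) and 0.53 for Fbln1 (limma adjusted p = 0.592). For Aβ plus acetate against acetate it was -1.23 for Dcn (limma adjusted p = 0.461), -0.64 for Lum and -0.68 for Postn (limma adjusted p = 1.00 for both). For Aβ plus acetate against control it was -1.04 for Dcn (limma adjusted p = 0.985). The comparisons share libraries, each set has 1 or 2 libraries per group, and the fit has 3 residual degrees of freedom.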

How the results depend on the processing

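Of the 9 genes, 8 stayed lower in set 2 past the threshold whichever library was left out (largest limma adjusted p 0.00851, for Ogn). The count of genes that differ between the sets ranged from 8763 to 10095 there. Fbln1 ranged from -0.26 to 0.0080. With a replicate block by title number beside the set, that count was 4746 in place of 9929, and Fn1 was at -0.49 (limma adjusted p = 0.0901). With group and set removed, 1 of 9 title pairs and 0 of 7 library-name pairs had r over 0.1. Removing group and set by itself turns many of these correlations negative. The cut at 0.1 could therefore hardly show pairing, and whether the numbers pair libraries stays undecided. In the replicate block by library name, 0 genes passed in the 3 treatment comparisons. A filter at mean CPM 5 leaves out Lum, Foxc2 and Aldh1a2. By median-of-ratios scaling 49.9% of called genes were higher in set 2, against 54.3%.

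No treatment comparison gave a call for the 9 genes under any of 21 settings. Without the set, acetate against control turned to -0.60 for Dcn, -0.15 for Lum, -0.11 for Ogn, -0.12 for Fn1 and -1.38 for Postn, and Aβ plus acetate against control to -0.30 for Lum, -0.54 for Foxc1 and -0.55 for Foxc2; the uneven split of groups over sets then enters. For acetate against control, Foxc2 was at 0.014 with a pseudocount of 0.25, 0.013 with median-of-ratios and 0.043 with quantile scaling. Dcn in Aβ plus acetate against control was at 0.022 with a pseudocount of 4. With libraries left out in turn, acetate against control ranged from -0.14 to 0.38 for Ogn, -0.021 to 0.13 for Fn1, -0.15 to 0.20 for Fbln1 and -0.054 to 0.097 for Foxc2. Aβ plus acetate against acetate ranged from -0.34 to 0.064 for Aldh1a2. Aβ plus acetate against control ranged from -0.68 to 0.038 for Dcn, -0.088 to 0.17 for Lum, -0.33 to 0.095 for Ogn, -0.015 to 0.33 for Fbln1, -0.017 to 0.11 for Foxc1, -0.036 to 0.11 for Foxc2 and -0.47 to 0.0020 for Aldh1a2. The cause of these turns was not tested. Few reads limit Lum, Foxc2 and Aldh1a2 in set 2.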

Other observations

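Genes of TGF-β signalling, the growth factor pathway that drives matrix synthesis in fibroblasts, were mostly lower in set 2, with 10 lower and 4 higher of 17 tested and a median log2 difference of -0.82 beside 0.050 for all genes. Eng, for the co-receptor endoglin, fell from 54.5 to 1.54 CPM (log2 difference -4.46), Tgfb3 from 181 to 32.0 (-2.49) and Ltbp1, whose protein holds latent TGF-β, from 41.4 to 8.66 (-2.20). The 4 that rose, named after their values were seen, were Tgfbr1 (0.79), Smad2 (0.78), Tgfbr3 (0.58) and Smad4 (0.34). Tgfb1, Tgfbr2 and Smad3 did not pass, and signalling itself was not measured.

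The remaining fibroblast and meningeal markers were divided, with 16 lower and 11 higher of 30 tested and a median of -0.39. Mgp, for matrix Gla protein, fell from 30.1 to 0.261 CPM (log2 difference -4.55), Cemip, for a hyaluronan-degrading protein, from 261 to 18.6 (-3.67) and Cdh11, for cadherin 11, from 153 to 52.5 (-1.51), while Nupr1, a stress-responsive gene, rose from 11.0 to 58.7 (2.27). The other 10 that rose, chosen after their values were seen, changed less, among them Moxd1 from 4.73 to 12.9 CPM (1.34), Pdgfra, a receptor gene of fibroblasts and of oligodendrocyte precursors, from 5.26 to 12.5 (0.90), Adamtsl3 from 130 to 225 (0.78), Bicc1 from 73.6 to 129 (0.78), Gjb2 from 0.314 to 1.21 (0.69) and S100a6 from 82.1 to 117 (0.50).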
